A study of Arabidopsis thaliana with 12 samples.

Results

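The mitochondrial genes cox1, nad4L, ccb452 and ccb382 were each read by 1 probe set on Affymetrix ATH1 arrays of Arabidopsis leaf RNA. A probe set is a group of short probes read together as 1 transcript. The members were all probe sets that the platform annotation pairs with these 4 genes of the mitochondrial genome, 4 of the 22746 probe sets tested. None of the 4 genes has a second probe set there, alone or listed with other genes. The series holds 12 arrays in 4 groups of 3: the des1-1 line (SALK_103855) and its wild type, Col-0, each irrigated with water or with Na2S. All plants grew in soil for 20 days and were then irrigated for 10 days with water or with Na2S, given as 200 mM in the labels, so that leaves came from plants of 30 days. The des1-1 line carries a T-DNA insertion in DES1, which encodes a cytosolic enzyme that degrades L-cysteine and releases sulfide. It is a single insertion line in the Col-0 background, and DES1 transcript is not analysed here, so the genotype labels were not checked against the gene itself. The design asks how the line differs from wild type and whether sulfide given from outside changes that difference. Water was the only control for Na2S, so sulfide cannot be told apart from sodium or other properties of the solution. The labels give replicate numbers but not how many plants each RNA came from, so the p-values measure the spread between these samples.

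Plant mitochondria keep a small genome that encodes core subunits of the respiratory chain, some ribosomal proteins and part of the machinery that matures cytochrome c, while most mitochondrial proteins are encoded in the nucleus. The gene cox1 encodes the largest subunit of cytochrome c oxidase (complex IV), which holds the haem and copper centre where oxygen is reduced and where sulfide is known to inhibit respiration. The gene nad4L encodes a small membrane subunit of the NADH dehydrogenase of the chain (complex I). The genes ccb452 and ccb382 carry the current names ccmFC and ccmFN1 in the gene table of assembly TAIR10.1. Both encode pieces of CcmF, a membrane protein that works with CcmH to attach haem to apocytochrome c, and which in Arabidopsis is split over several genes. Mature cytochrome c then carries electrons to complex IV.

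The values are levels on a log2 scale made by robust multi-array average (RMA), and levels of different probe sets are not compared, since probes differ in brightness. Within each array, between 37.0% and 49.6% of the tested probe sets were dimmer than that of nad4L, between 43.4% and 62.1% were dimmer than that of ccb452, between 50.9% and 69.2% than that of cox1, and between 69.3% and 82.5% than that of ccb382. The ccb452 probe set has a name ending in _s_at, which Affymetrix gives to sets whose probes match several transcripts. A large copy of the mitochondrial genome lies in chromosome 2 of the Col-0 nucleus, and RNA from such a near-identical copy cannot be told apart from mitochondrial RNA here. The labelling kit starts from poly(A) tails, which plant mitochondrial transcripts mostly lack as stable tails, so these values follow the RNA that the kit could prime. In bulk leaf RNA, fewer cells of a type and less RNA per cell cannot be told apart.

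Arrays of the same group correlated at 0.9929 to 0.9975 across probe sets and arrays of different groups at 0.9451 to 0.9961. Of 19 leaf photosynthesis markers 4 were measured, namely RCA, LHCB4.1, PSAN and PSBW, and each was brighter than at least 99.1% of the tested probe sets on every array. Of 7 root markers 2 were measured, of 5 flower markers 0. Here and below, a listed gene counts as measured if the annotation pairs it with a probe set that lists it alone. Other listed genes may still be read by the array. The root marker PYK10 lay between 6.49 and 6.99 in untreated wild type and between 3.26 and 3.70 in the other groups, and EXPA7 between 3.52 and 4.25 throughout.

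The 3 genes cox1, nad4L and ccb452 were higher in des1 than in wild type under water, by 1.98-fold, 1.88-fold and 2.74-fold, and ccb382 did not pass the test. In des1 all 4 genes were lower with Na2S than with water, and between the treated genotypes none of the 4 passed the test. In wild type, ccb452 alone among the 4 passed the test with Na2S, rising 1.59-fold. The tests are from 1 limma fit of all 12 arrays, with p-values adjusted over the 22746 probe sets and a threshold of 0.05.

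The cox1 probe set gave 6.37, 5.89 and 6.33 in untreated wild type, and 6.96, 7.23 and 7.36 in untreated des1. All 3 untreated des1 arrays lay above every other array of the series. With Na2S, cox1 gave 6.60, 6.10 and 6.11 in wild type and 6.41, 5.79 and 5.90 in des1. These treated arrays overlapped those of untreated wild type. The level was 0.99 ± 0.18 higher in untreated des1 than in untreated wild type (log2 difference ± limma SE, n = 3 arrays a group, limma adjusted p = 0.000134).

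The nad4L probe set gave 4.68, 4.60 and 4.72 in untreated wild type, and 5.50, 5.49 and 5.75 in untreated des1. The untreated des1 arrays were again the 3 highest of the 12. With Na2S it gave 5.0, 4.84 and 4.70 in wild type and 4.80, 4.76 and 4.83 in des1. These 6 treated values overlapped between the genotypes. The genotype difference under water was 0.91 ± 0.11 (limma adjusted p = 9.64e-07).

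The ccb452 probe set gave 5.34, 5.18 and 5.39 in untreated wild type, and 6.65, 6.77 and 6.85 in untreated des1, with no overlap. With Na2S it gave 5.86, 5.98 and 6.07 in wild type and 5.87, 5.89 and 5.84 in des1. The treated arrays of both genotypes thus lay between the untreated groups, above all untreated wild type arrays and below all untreated des1 arrays. The genotype difference under water, 1.45 ± 0.10 (limma adjusted p = 1.05e-09), was the largest of the 4 genes.

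The ccb382 probe set gave 8.37, 7.81 and 7.89 in untreated wild type, and 7.81, 7.71 and 8.15 in untreated des1. These groups overlapped. With Na2S it gave 7.82, 7.65 and 7.80 in wild type and 7.46, 7.60 and 7.29 in des1, so that the treated des1 arrays were the 3 lowest of the series. The genotype difference under water was -0.13 ± 0.15 (limma adjusted p = 0.531, 95% interval -0.44 to 0.17). With limma array weights it was -0.38 and passed the test (adjusted p = 0.0169).

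**Figure D1:**
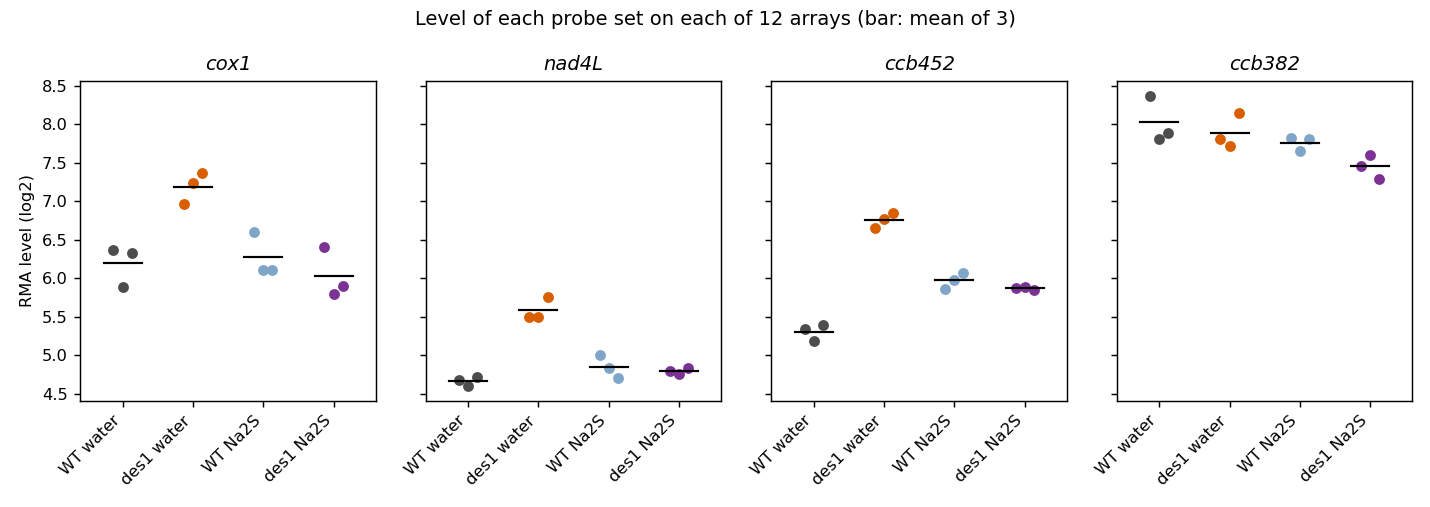
RMA level (log2, vertical axis) of the probe sets of cox1, nad4L, ccb452 and ccb382, 1 panel each, in wild type (WT) and des1 leaves with water or Na2S. Points are single arrays in the order of replicates 1 to 3 and bars are means of 3; heights are not comparable between panels. The untreated des1 arrays are the highest for cox1, nad4L and ccb452, and the treated des1 arrays the lowest for ccb382.

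Under water, 3 of the 4 genes were called higher in des1 and 0 lower, where 22.0% of all tested probe sets were called higher and 22.6% lower. How far the 4 genes moved relative to each other was read on each array, as the difference between the log2 values of a pair of genes, in 24 exact two-sided permutation tests over samples. Each had a smallest possible p of 0.1, so no test of 3 arrays against 3 could pass a threshold of 0.05, and the lowest adjusted p over the 24 was 0.218. The shift of ccb452 exceeded that of ccb382 by 1.59, with no overlap between the genotypes (exact permutation p = 0.1). The shift of cox1 exceeded that of ccb382 by 1.12 and the shift of nad4L exceeded it by 1.05, also with no overlap (exact permutation p = 0.1 for each). The pieces of CcmF encoded by ccb452 and ccb382 were thus the pair with the largest gap in this comparison. The shifts of cox1 and nad4L differed by 0.07, with overlapping arrays (exact permutation p = 0.7).

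Under Na2S the genotype difference was -0.24 ± 0.18 for cox1, with a 95% interval from -0.61 to 0.13 (limma adjusted p = 0.661). It was -0.05 ± 0.11 for nad4L, with an interval from -0.27 to 0.17 (limma adjusted p = 0.907), and -0.10 ± 0.10 for ccb452, with an interval from -0.31 to 0.11 (limma adjusted p = 0.748). These intervals do not reach the differences measured under water, 0.99, 0.91 and 1.45. For ccb382 the value was -0.31 ± 0.15 (limma adjusted p = 0.44, unadjusted p = 0.0501), and the 3 des1 arrays lay below the 3 wild type arrays without overlap. Of the 4 genes 0 were called by limma here and 0 reached 0.05 before adjustment, where 1.40% of all tested probe sets were called in either direction. That share stands for 318 calls, which numbered 838 with array weights and 186 without wild type Na2S replicate 2. Leaving out the treated wild type replicate 1 gave 205, and leaving out replicate 1, 2 or 3 of treated des1 gave 189, 198 or 207.

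The interaction term tests whether the genotype difference changed between water and Na2S. It was -1.22 ± 0.25 for cox1 (limma adjusted p = 0.000648), -0.96 ± 0.15 for nad4L (4.57e-05) and -1.56 ± 0.14 for ccb452 (8.13e-08). For ccb382 it was -0.17 ± 0.21, with a 95% interval from -0.61 to 0.26 (limma adjusted p = 0.574). Negative interactions were called for 3 of the 4 genes and for 19.1% of all tested probe sets.

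The effect of Na2S was then read within each genotype. In wild type, ccb452 rose by 0.67 ± 0.10 (limma adjusted p = 4.05e-05), with no overlap. The values for cox1 (0.07 ± 0.18, limma adjusted p = 0.805), nad4L (0.18 ± 0.11, 0.231) and ccb382 (-0.27 ± 0.15, 0.193) did not pass. For ccb382 the value with array weights was -0.52 and passed (adjusted p = 0.00214). In this comparison 15.0% of all tested probe sets were called higher and 15.4% lower.

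In des1 all 4 genes fell with Na2S, with no overlap between treated and untreated arrays for any of them. The share of all tested probe sets without such overlap is not given here, so this count has no background. The log2 difference was -1.15 ± 0.18 for cox1 (2.22-fold lower, limma adjusted p = 4.09e-05), -0.78 ± 0.11 for nad4L (1.72-fold lower, 1.03e-05) and -0.89 ± 0.10 for ccb452 (1.85-fold lower, 1.22e-06). For ccb382 it was -0.44 ± 0.15 (1.36-fold lower, limma adjusted p = 0.0232). Lower calls made up 19.6% of all tested probe sets and higher calls 17.5%. The call of ccb382 was lost without des1 water replicate 3 (-0.31, adjusted p = 0.142), without des1 Na2S replicate 3 (-0.36, 0.11) or without des1 Na2S replicate 1 (-0.45, 0.0505), and after a further quantile normalization (-0.38, 0.0567). The calls of the other 3 genes held without any single array.

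Treated des1 was also set against untreated wild type, the pair of groups that differ in both genotype and irrigation. For cox1 (-0.16 ± 0.18, limma adjusted p = 0.563) and nad4L (0.13 ± 0.11, 0.421) the difference did not pass, although the nad4L arrays did not overlap. The level of ccb452 was 0.56 ± 0.10 higher (1.48-fold, limma adjusted p = 0.000236) and that of ccb382 was lower by 1.49-fold (-0.57 ± 0.15, 0.00514). These 2 genes, which encode pieces of the same protein, thus lay on opposite sides of the untreated wild type level. Of all tested probe sets 14.2% were called higher and 16.1% lower, 3229 and 3654 in number, against 4080 and 3076 with arrays centred on their medians.

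**Figure D2:**
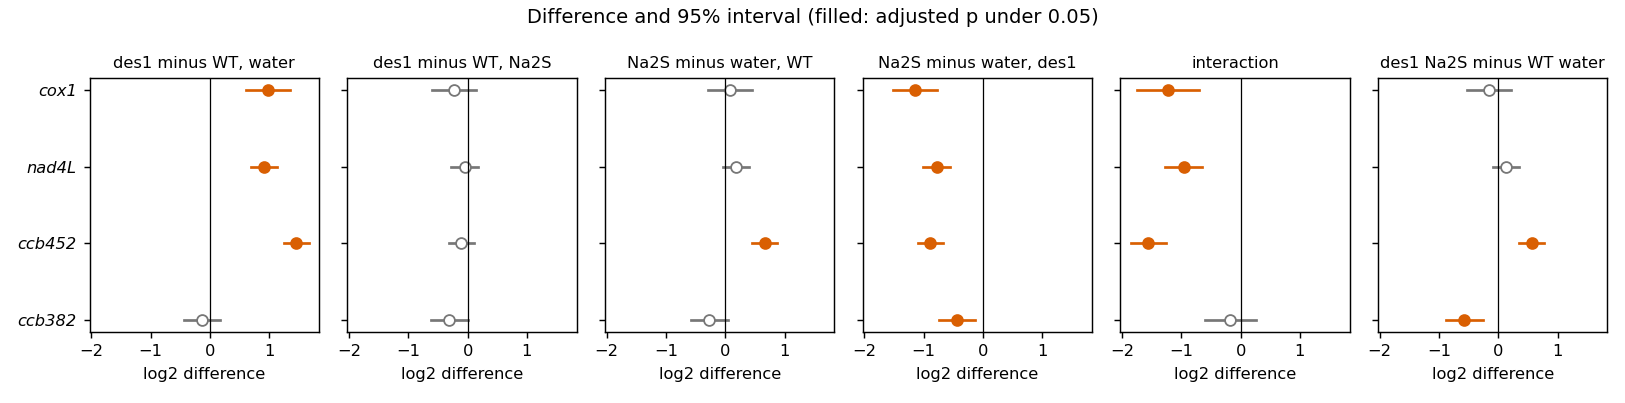
Log2 difference (horizontal axis) of cox1, nad4L, ccb452 and ccb382 in each of the 6 comparisons, with the 95% interval as a line. Filled points passed the limma test at an adjusted p under 0.05. Under water cox1, nad4L and ccb452 lie at 0.99, 0.91 and 1.45, and under Na2S the intervals of these genes include 0.

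By group mean, cox1 was highest in untreated des1 (7.18 ± 0.20, SD, n = 3), followed by treated wild type (6.27 ± 0.29), untreated wild type (6.2 ± 0.27) and treated des1 (6.03 ± 0.33). Arrays overlapped at every step except the one below untreated des1. Untreated des1 against treated wild type was not among the comparisons tested. The order for nad4L was untreated des1 (5.58 ± 0.15), treated wild type (4.85 ± 0.15), treated des1 (4.80 ± 0.04) and untreated wild type (4.67 ± 0.06), and the neighbours below untreated des1 did not pass the test. For ccb452 the order was untreated des1 (6.76 ± 0.10), treated wild type (5.97 ± 0.11), treated des1 (5.87 ± 0.03) and untreated wild type (5.30 ± 0.11), and of the neighbours tested, treated des1 lay above untreated wild type while the treated groups did not pass. For ccb382 the order was untreated wild type (8.02 ± 0.30), des1 with water (7.89 ± 0.23), wild type with Na2S (7.76 ± 0.09) and des1 with Na2S (7.45 ± 0.16), and none of the neighbours tested passed.

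The rest of the mitochondrial genome gives the setting of these 4 genes. Another 19 probe sets were each listed with 1 other mitochondrial gene, covering 12 genes. Under water 10 of the 19 were called higher in des1 and 0 lower, where 22.0% of all tested probe sets were called higher and 22.6% lower. Their median log2 difference was 0.35, where the median over all tested probe sets was 0.0067. The gene nad9, a complex I subunit, rose by 1.3 ± 0.11 (2.46-fold), from 4.29 to 4.44 in wild type to 5.51 to 5.79 in des1. The complex IV subunit gene cox2 rose by 0.67 ± 0.15 and the complex I subunit gene nad4 by 0.66 ± 0.13. All of these 3 genes encode respiratory chain subunits, as cox1 and nad4L do. The count was 8 to 11 when single arrays were left out in turn. It counts probe sets, not genes, and includes several sets of nad1, described next. Sets of nad5, chosen after their values were seen, also differed. Set 257338_s_at was called (0.61 ± 0.14, limma adjusted p = 0.00134) and 257337_at was not (0.19 ± 0.11, 0.217).

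The gene nad1, which encodes another membrane subunit of complex I and whose transcript is pieced together by trans-splicing, was read by 7 of these probe sets. They differed widely among themselves, from 0.09 ± 0.11 to 1.23 ± 0.11 under water. Its set 257324_at gave the highest value, 257325_at gave 1.1 ± 0.11 and 257322_at gave 1.05 ± 0.11. Of the 7 sets 5 were called higher and 2, at 0.25 and 0.09, were not. The call for nad1 thus depended on which probe set read it. Both uncalled sets were dim, with means of 3.7 (257327_at) and 3.72 (257329_at) in untreated wild type. Sets 257324_at, 257325_at and 257322_at had means of 5.07, 4.47 and 4.51 there. The called set 257323_at was dim as well, at 3.16 there and 3.76 in untreated des1. Whether the uncalled sets were too dim to show a change was not tested. A further 2 sets, listed with nad1 and a nuclear gene, were not called either. They gave 0.28 ± 0.13 (265229_s_at, limma adjusted p = 0.0828) and -0.12 ± 0.13 (266013_s_at, 0.496). Each of cox1, nad4L, ccb452 and ccb382 had only 1.

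The remaining genes for cytochrome c maturation did not pass under water. The gene ccb203, now ccmFN2, encodes a further piece of CcmF and gave 0.17 ± 0.10 (limma adjusted p = 0.198). The gene ccb206, now ccmB, encodes a membrane subunit of the transporter complex that acts earlier in the pathway, and gave 0.35 ± 0.15 (limma adjusted p = 0.065). Of the 4 maturation genes read singly, ccb452 alone was thus called higher in des1. These 2 genes and the values named for them were chosen after their values were seen, as were the probe sets with several genes.

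A further 12 probe sets were listed with more than 1 gene, in 11 cases a mitochondrial gene and its counterpart in the nuclear copy on chromosome 2. Of these 6 were called higher in untreated des1 and 0 lower, against 22.0% and 22.6% of all tested probe sets. The set for atp1, a subunit of the ATP synthase, rose by 1.72 ± 0.13, that for cob, the cytochrome b of complex III, by 1.00 ± 0.13, that for atp9 by 0.95 ± 0.14 and that for cox3, a complex IV subunit, by 0.84 ± 0.14. Core subunits of complexes I, III and IV and of the ATP synthase were thus among the probe sets called higher.

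Gene order in TAIR10.1 places ccmFC between rpl5 and nad4 among the protein-coding genes, and the sets for rpl5 (0.34 ± 0.09) and nad4 were both called higher under water. It places ccmFN1 between ccmC and cox3. The cox3 set was called higher while that of ccmFN1 was not. The gene cox1 lies between nad1, whose sets differed, and rps4, whose set was not called (0.23 ± 0.12, limma adjusted p = 0.149). The gene nad4L lies between cox3 and atp4. The genes ccmC and atp4 are not analysed here. Neighbours of called genes were thus called in some cases and not in others. This order is by start position alone. Strand, distance and the separate pieces of nad1 were not considered, and shared transcription was not tested.

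With Na2S in des1, 8 of the 19 singly listed probe sets fell and 0 rose (median -0.23, against 0.02 over all probe sets). Of all tested probe sets 19.6% were called lower there and 17.5% higher. The gene nad9 fell by 0.71, the nad1 set 257324_at fell by 0.76 and nad4 fell by 0.56 on the log2 scale. Without des1 water replicate 3 the count was 5. In wild type 5 rose and 0 fell, where 15.0% of all tested probe sets were called higher and 15.4% lower. The value for nad9 was 0.45 ± 0.11. The count of rises was 3 without wild type water replicate 3 and with a trended robust variance. Of the 12 probe sets with several genes, 3 rose and 1 fell in wild type and 8 fell in des1; that of the ribosomal protein genes rps3 and rpl16 fell in both, by 0.73 and 0.77 on the log2 scale. Between the treated genotypes 0 of the 19 were called and 0 had an unadjusted p under 0.05, where 1.40% of all tested probe sets were called. The interaction was called for 9 of the 19 and for 6 of the 12 with several genes, all negative. Negative interactions made up 19.1% of all tested probe sets.

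**Figure D3:**
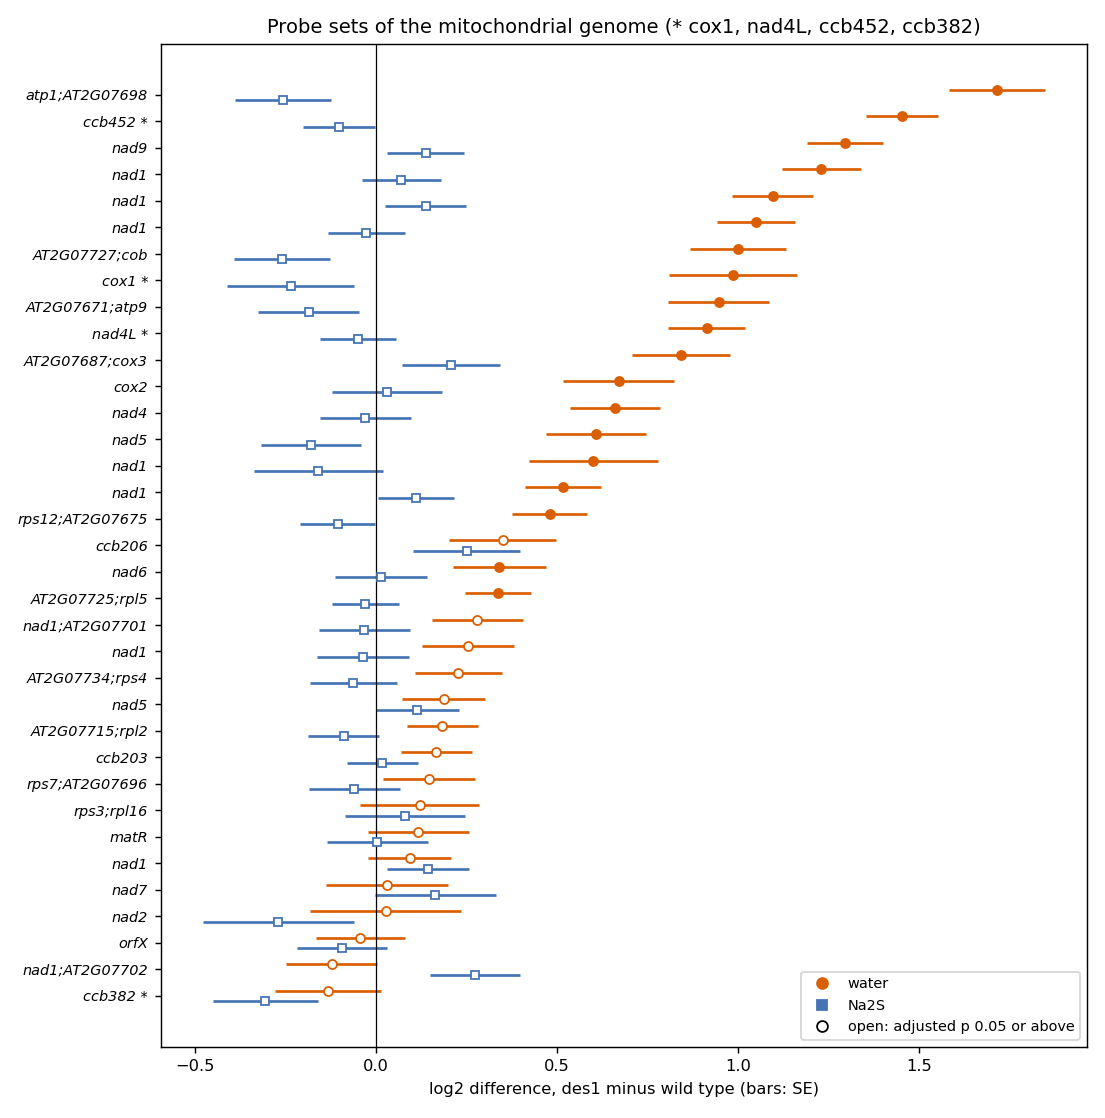
Log2 difference of des1 minus wild type (horizontal axis, bars are limma SE) for the 35 probe sets of mitochondrial genome genes, under water (circles) and under Na2S (squares), in order of the water value. Asterisks mark cox1, nad4L, ccb452 and ccb382, filled symbols passed the test, and repeated names are separate probe sets. The Na2S values of all sets lie near 0, between -0.31 and 0.27, while the water values reach 1.72.

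For comparison with the other organelle genome, of 69 singly listed plastid probe sets 2 were called higher and 23 lower in des1 under water, with a median of -0.25. The shares over all tested probe sets were 22.0% higher and 22.6% lower. In des1 with Na2S 9 of the 69 rose and 6 fell, where 17.5% of all tested probe sets were called higher and 19.6% lower. No test of the difference between the 2 genomes was made.

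The array also carries a ribosomal RNA control and 3' and 5' controls of abundant messengers. The 25S ribosomal RNA control was lower in untreated des1 than in untreated wild type by 1.09 on the log2 scale (-1.09 ± 0.20) and rose by 0.96 ± 0.20 with Na2S in des1. The 3' minus 5' log2 difference of the ubiquitin control was 1.76 to 1.81 in untreated wild type and 1.19 to 1.40 in untreated des1, and with Na2S it was 1.35 to 1.61 and 1.49 to 1.56. Between the untreated groups that of the actin control overlapped, at 3.26 to 3.52 in wild type and 3.33 to 3.56 in des1, as did that of the GAPDH control, at 1.18 to 1.68 and 0.81 to 1.40. The summed log2 level of the 4 leaf markers was 54.5 to 54.8 in untreated wild type and 53.5 to 53.6 in untreated des1, and with Na2S it was 54.1 to 54.6 and 54.3 to 54.9. The markers went both ways under water: LHCB4.1 (-0.64 ± 0.10), PSAN (-0.49 ± 0.10) and PSBW (-0.33 ± 0.11) were called lower in des1 and RCA (0.32 ± 0.09) higher, and the PSBW call was lost without des1 water replicate 2 (-0.28, adjusted p = 0.0716). The summed level of the 2 root markers was 10.2 to 10.5 in untreated wild type and 6.89 to 7.71 over the other groups. This gap came from PYK10 (-3.24 ± 0.13 in des1 under water), while EXPA7 gave 0.02 ± 0.13 (limma adjusted p = 0.915). The 25S control, the ubiquitin 3' minus 5' difference and the leaf marker sum thus did not overlap between the untreated genotypes, and the root marker sum set untreated wild type apart from the other 3 groups. Their part in the differences of cox1, nad4L and ccb452 was not tested.

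Nuclear genes that serve the same complexes were described from lists of known partners, and their counts under water stand against the 22.0% of all tested probe sets called higher and 22.6% called lower. Of 15 nuclear complex IV genes 7 were measured, and under water 2 were called higher and 1 lower in des1 (median 0.07). AT3G15640, a COX5b subunit, fell by 1.04 on the log2 scale (limma adjusted p = 1.19e-07), opposite in sign to cox1 in the same complex. AT1G02410, the copper-delivering assembly factor COX11, rose by 0.40 ± 0.11 and AT5G57815, a COX6b subunit, by 0.38 ± 0.11. AT1G53030, a COX17 gene, gave 0.45 ± 0.22 and did not pass (limma adjusted p = 0.105). With Na2S in des1 AT3G15640 rose by 1.11 ± 0.10 while AT5G57815 fell by 0.82 and AT1G02410 fell by 0.38 on the log2 scale. In that comparison 1 of the 7 was called higher and 3 lower, where the shares over all probe sets were 17.5% and 19.6%. The lower calls included AT1G53030. The call of AT1G02410 was lost without des1 Na2S replicate 2 (-0.30, limma adjusted p = 0.065). That of AT1G53030 was lost after quantile normalization (-0.52, 0.0695) and without some single arrays.

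Of 15 nuclear complex I genes 5 were measured, and under water 1 was called higher and 2 lower (median -0.38). GLDH, which makes ascorbate and is needed for complex I assembly, fell by 0.78 and FRO1, a peripheral subunit, fell by 0.39 on the log2 scale. AT2G02050 gave -0.38 ± 0.16 and did not pass (limma adjusted p = 0.0704). AT5G11770, the subunit that holds the last iron-sulfur cluster of the chain to ubiquinone, rose by 0.33 ± 0.10, and this call was lost without wild type water replicate 3 (0.24, adjusted p = 0.0938).

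Of 7 nuclear genes for cytochrome c and its maturation 5 were measured, with 1 called higher and 1 lower under water. CYTC-2 rose by 0.93 ± 0.10 and CYTC-1 fell by 0.41 on the log2 scale; both encode cytochrome c, the protein that the products of ccb452 and ccb382 help to mature. CCMH, the partner of CcmF, gave 0.26 ± 0.10 and did not pass under water (limma adjusted p = 0.0552). It fell by 0.48 on the log2 scale with Na2S in des1 (limma adjusted p = 0.00122), as ccb452 did. CYTC-2 rose with Na2S in wild type (1.48 ± 0.10) and in des1 (0.66 ± 0.10).

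Enzymes that bypass the chain and mitochondrial stress genes went both ways under water. Of 21 listed 8 were measured, 4 called higher and 3 lower. NDB2, an external NADH dehydrogenase that bypasses complex I, rose by 1.78 ± 0.10, and the mitochondrial small heat shock gene AT5G51440 rose by 0.95 ± 0.16. AT2G21640, a marker of oxidative stress in mitochondria, fell by 1.15 and NDB1, an external NADPH dehydrogenase, fell by 0.69 on the log2 scale. With Na2S, NDB2 rose in wild type by 1.35 ± 0.10 and fell by 0.85 in des1, the same directions as ccb452. Between the treated genotypes it was lower in des1 (-0.42 ± 0.10, limma adjusted p = 0.037). The value stayed between -0.44 and -0.38 under all alternatives run, but the call was lost in 8 of the 12 fits that left out an array, with the highest adjusted p of 0.151 without des1 Na2S replicate 1. It was also lost with the replicate block (0.0642), with only the compared arrays (0.0626), after quantile normalization (0.0619) and with median centring (0.0529).

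Of 17 nuclear genes for mitochondrial RNA synthesis, splicing and turnover 5 were measured, with 0 called higher and 1 lower under water. AT5G14580, the mitochondrial polynucleotide phosphorylase that degrades RNA, fell by 0.50 on the log2 scale (limma adjusted p = 0.00191). AT5G15700, an RNA polymerase shared by mitochondria and plastids, gave -0.15 ± 0.10 and did not pass. Nor did AT5G46920 (-0.24 ± 0.13, limma adjusted p = 0.159). None of the 5 listed genes for handling sulfide in mitochondria was paired with a probe set that lists it alone, so they are not described here.

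**Figure D4:**
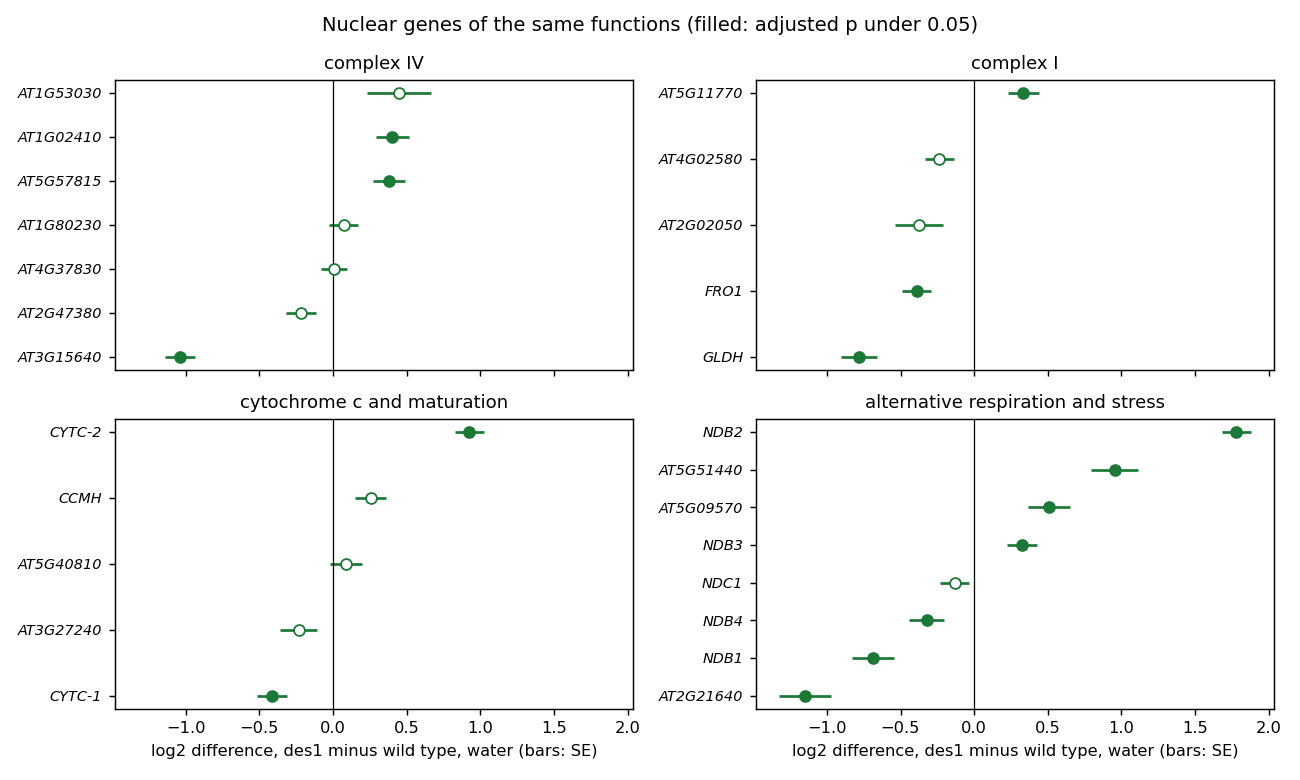
Log2 difference of des1 minus wild type under water (horizontal axis, bars are limma SE) for measured nuclear genes of complex IV, complex I, cytochrome c and its maturation, and alternative respiration and mitochondrial stress. Filled points passed the test. Genes of every panel lie on both sides of 0, from -1.15 for AT2G21640 to 1.78 for NDB2.

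Profiles most like each of the 4 genes were sought among singly annotated probe sets, by the root mean square difference of values centred on their mean over the 12 arrays. For cox1 these were AT3G62860 (0.165), AT1G51890 (0.166) and AER (0.167), and for nad4L AT1G69840 (0.0975), AT5G54870 (0.104) and AT3G01170 (0.109). For ccb452 they were AT4G03200 (0.0871), AT5G06280 (0.0889) and AT5G25450 (0.0959). For ccb382 they were BIM1 (0.134), AT1G54220 (0.157) and AT3G13340 (0.163). All 12 are nuclear genes, and none of the 19 other singly listed mitochondrial probe sets was among the 3 closest of any of the 4 genes. The series has 13350 singly listed genes, so nuclear genes were likely to fill these places whatever the mitochondrial sets did. The 12 mitochondrial sets listed with several genes were not searched. The group means spanned 1.15 for cox1, 0.91 for nad4L, 1.45 for ccb452 and 0.57 for ccb382 on the log2 scale.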

How the data were processed

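Leaf RNA of 12 samples was measured on ATH1 arrays. The submitters' processing notes name RMA and affy for the log2 values that the authors deposited; versions, and whether all arrays were processed together, are not given in the sources used here. RMA brings arrays to 1 distribution, so a shift shared by most transcripts would be removed. Of 22810 probe sets 64 controls were left out of the tests. Probe sets were named through the platform annotation, and TAIR10.1 was used for names and gene order only; no sequences or coordinates are given. Samples were grouped by their titles. A mean per group was fitted with limma 3.58.1 (lmFit, eBayes) in R 4.3.3, with Benjamini-Hochberg adjustment over 22746 probe sets in each of 6 comparisons. All adjusted p-values of single genes are limma's unless called exact. Arrays give no read depth, and 3 arrays a group limit the precision. A simulation for 22746 probe sets changed 200 of them. In the water comparison of the genotypes 97.0% of 67 sets changed 2-fold and 64.2% of 67 changed 1.5-fold were recovered, with 10 false calls. For the interaction these shares were 76.1% and 25.4%, with 7 false calls. The data themselves had 5015 higher and 5151 lower calls in the water comparison. Adjusted p-values depend on how many probe sets change, so these shares and false calls are not estimates for these data.

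The genes named from each list are among the 4 measured genes with the largest absolute log2 difference of the comparison. Not all 4 are named each time. Up to 6 other mitochondrial probe sets are named by size in the same way. Other names are said to be chosen after their values were seen. The members and lists were chosen with earlier results of these data known. Alternatives were a further quantile normalization, centring on array medians, leaving out dim probe sets, a trended robust variance, array weights, a fit of the compared arrays only, a replicate block, probe sets of 1 gene, a 2-fold minimum for call counts, and each array left out in turn.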

Additional observations from a re-analysis of the deposited data

Results flagged for a closer look

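The difference between des1 and wild type under Na2S differed from that under water, by the interaction term of limma, in 18 of the 35 probe sets of mitochondrial genome genes. All 18 were negative, and negative interactions were called for 19.1% of all tested probe sets. For the cox1 probe set the term was -1.22 (adjusted p = 0.000648), for nad4L -0.96 (4.57e-05) and for ccb452 -1.56 (8.13e-08). Among the other singly listed genes it was -1.16 for nad9 (5.44e-06), -0.79 for nad5 set 257338_s_at (0.00347), -0.69 for nad4 (0.00442) and -0.64 for cox2 (0.0262). The nad1 sets gave -1.16 for 257324_at (8.19e-06), -1.08 for 257322_at (1.53e-05), -0.96 for 257325_at (8.45e-05), -0.76 for 257323_at (0.0237) and -0.41 for 257321_at (0.0378). Sets listed with several genes gave -1.97 for atp1 (1.47e-07), -1.26 for cob (3.02e-05), -1.13 for atp9 (0.000146), -0.64 for cox3 (0.0132), -0.59 for rps12 (0.00353) and -0.37 for rpl5 (0.034). The calls of cox2, rpl5 and the nad1 sets 257323_at and 257321_at were lost when some single arrays were left out, with the highest adjusted p of 0.0765 for cox2 without wild type water replicate 1, 0.0914 for rpl5 without wild type water replicate 3, 0.075 for 257323_at without des1 water replicate 3 and 0.106 for 257321_at without des1 water replicate 2 or des1 Na2S replicate 1. Those of rpl5 and 257321_at were also lost with trended robust variance (0.0817 and 0.0828) and with the replicate block (0.0521 and 0.0562). Causes were not tested.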

How the results depend on the processing

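Of 24 results for cox1, nad4L, ccb452 and ccb382, 21 kept their side of the threshold under each alternative run for single genes (a 2-fold minimum was applied to counts only); the 3 exceptions concern ccb382. Its fall with Na2S in des1 was -0.38 after quantile normalization and no longer passed, and it ranged from -0.53 to -0.31 without single arrays. With array weights ccb382 passed under water (-0.38) and with Na2S in wild type (-0.52). The cause was not tested. With the replicate block the genotype differences under water stayed at 0.99, 0.91 and 1.45 for cox1, nad4L and ccb452, and no call of the 4 genes changed. Samples of the same number did not deviate together: of 18 pairs 1 correlated above 0.1, over a range from -0.21 to 0.16. Calls between the treated genotypes numbered 838 with array weights and 186 to 357 without single arrays. Among the 19 other mitochondrial probe sets, rises with Na2S in wild type numbered 3 with a trended robust variance and 3 to 6 without single arrays, and falls in des1 5 to 8. Testing only probe sets of 1 gene gave, by construction, fewer calls: 5397 and 134 between the genotypes under water and Na2S, 3526 and 4442 for Na2S in wild type and des1, 4472 for the interaction and 3598 for treated des1 against untreated wild type. With a 2-fold minimum these were 3018, 51, 1492, 1713, 3420 and 1478. Using only the compared arrays gives no other value for the interaction, which needs all of them. No probe set listed with several genes included cox1, nad4L, ccb452 or ccb382, so that alternative could not be run.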
